A study of Caenorhabditis elegans with 2 samples.

Results

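The 8 genes described here encode part of the machinery of RNA polymerases I and III. They are rpoa-1 and rpoa-2 (RNA polymerase I), rpc-1 and rpc-2 (RNA polymerase III), rpac-19 and rpac-40 (subunits that both enzymes share), brf-1 (an RNA polymerase III initiation factor) and tbp-1 (the TATA-binding protein). They are 8 of 19973 nuclear protein-coding genes, and they were chosen by name with earlier results of the same peak lists known, among them the summits of rpac-19 and rpc-2. Their values are therefore given as a description, beside the same values over all nuclear protein-coding genes, and no test was made on them.

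The data come from chromatin immunoprecipitation followed by sequencing (ChIP-seq) of ZNF-207, the zinc finger protein encoded by B0035.1, in Caenorhabditis elegans. There was 1 group of 2 biological replicates, both from the strain xtl1186, a stable transgenic line in which a GFP-FLAG tag follows the C-terminus of the protein. Hermaphrodites were collected as young adults, 50 hours after synchronization as L1 larvae that had been starved after bleaching, and an anti-GFP antibody was used on sonicated chromatin. The material was whole animals, so a peak gives no information on the cell type it came from, and a fusion protein from a transgene need not bind as the untagged protein does. The possible control named in the labels was not analysed here, so no value below is set against animals without the tag.

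The values come from 4 peak lists in the ce11 build. The pooled list was made from both replicates and held 30000 peaks, the thresholded list held 750 peaks, and the lists of replicate 1 and replicate 2 held 30000 and 25036 peaks. The pooled list was labelled as holding background as well as peaks, so an entry in it need not be a called peak. Signal is the authors' own value for each peak. Its scale differs between lists, and each signal is therefore given with its rank in that list, where rank 1 is the highest signal. The 750 thresholded peaks were the 750 strongest of the pooled list, and the signal was 88.6 both at rank 750 and at rank 751. A promoter summit is a peak's point of highest signal that lies between 500 bp upstream and 200 bp downstream of the gene's outermost annotated start. Positions are given relative to that start, with negative values upstream. Without read counts in the lists, the sequencing depth behind each peak is unknown.

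RNA polymerase I transcribes the precursor of the large ribosomal RNAs in the nucleolus, and RNA polymerase III transcribes 5S ribosomal RNA, transfer RNAs and other short RNAs. In each enzyme the largest and second largest subunits form the catalytic centre, and a pair of smaller subunits shared by both enzymes, RPAC-19 and RPAC-40 in the worm, takes the place that RPB-11 and RPB-3 take in RNA polymerase II. BRF-1 and the TATA-binding protein are parts of TFIIIB, the factor that brings RNA polymerase III to its promoters, and the TATA-binding protein also serves the other nuclear polymerases. All of these proteins are themselves made from messenger RNAs, which RNA polymerase II transcribes, so the summits at these genes lie at RNA polymerase II genes.

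The bases under 4 of the pooled summits are shown first. They are the 3 with the highest signal in the 8 genes, at the starts of rpac-19 and rpc-2 and in an intron of rpc-2, and the weaker summit at the start of tbp-1, shown because it lies at nearly the same distance from the start as that of rpc-2. The sequences are those of the RefSeq reference for WBcel235 (the ce11 build), 5′ to 3′ on the gene's own strand. Capitals mark 21 bases centred on the summit of the pooled list. The first runs from 29 bp before to 270 bp after the rpc-2 start (chrIII:5557336-5557635, plus strand), the second is the whole space between ubc-7 and rpac-19 (chrIII:9629886-9630096, minus strand), and the third begins with the start codon of tbp-1 (chrIII:7384039-7384302, plus strand). The last lies in an intron of rpc-2 and holds the third of the strongest summits (chrIII:5563658-5563957, plus strand).
rpc-2 start: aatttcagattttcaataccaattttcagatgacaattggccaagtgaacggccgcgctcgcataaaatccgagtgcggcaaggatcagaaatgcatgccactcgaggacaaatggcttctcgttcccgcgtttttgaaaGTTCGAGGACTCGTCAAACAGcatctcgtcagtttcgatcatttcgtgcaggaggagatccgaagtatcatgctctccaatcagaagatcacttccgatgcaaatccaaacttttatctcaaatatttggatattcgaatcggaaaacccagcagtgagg
rpac-19 upstream space: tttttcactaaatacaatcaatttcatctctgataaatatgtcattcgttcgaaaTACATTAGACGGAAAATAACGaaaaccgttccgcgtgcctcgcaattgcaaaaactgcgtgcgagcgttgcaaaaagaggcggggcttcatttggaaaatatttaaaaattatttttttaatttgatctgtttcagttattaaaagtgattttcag
tbp-1 start: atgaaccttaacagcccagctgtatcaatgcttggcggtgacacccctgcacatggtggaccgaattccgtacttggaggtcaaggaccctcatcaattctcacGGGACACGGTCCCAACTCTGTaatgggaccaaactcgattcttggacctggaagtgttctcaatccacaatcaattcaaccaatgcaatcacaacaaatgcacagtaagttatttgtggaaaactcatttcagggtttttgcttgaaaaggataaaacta
rpc-2 intron: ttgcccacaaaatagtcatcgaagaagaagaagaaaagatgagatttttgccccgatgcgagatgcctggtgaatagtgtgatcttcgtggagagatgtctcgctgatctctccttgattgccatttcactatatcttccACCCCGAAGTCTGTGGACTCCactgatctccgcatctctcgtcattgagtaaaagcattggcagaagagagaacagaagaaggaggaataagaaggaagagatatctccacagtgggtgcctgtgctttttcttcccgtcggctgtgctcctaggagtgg

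The rpc-2 window had a GC content of 44.7%, and 90.2% of the windows at the same place of all nuclear protein-coding genes had a lower one (median 36.7%). In tbp-1 the GC content was 44.7%, above 86.6% of windows (median 37.5%). Both windows include coding sequence, and its part in the GC content was not tested. The rpac-19 space had a GC content of 33.2%, equal to the median of 33.2%. The intron window of rpc-2 had 47.3%, above 87.2% of the windows of that length on all nuclear pooled summits (median 37.0%).

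In these windows 7 motifs were searched on both strands: TATAAA (the TATA box), CACGTG (an E box), GAGAGA (a GA repeat), TTCCCGC (a form of the E2F site), GGGCGG (a GC box), TTTCAG (the usual end of an intron in the worm) and GTTCGANNC (the core of the B box of tRNA genes). No match overlapped another, and distances are counted to the first base of a match. TTCCCGC occurred once in the rpc-2 window, 27 bp before the summit, and 2.26% of windows at the same place of all genes held it. GAGAGA occurred at 4 places in the intron window of rpc-2, from 60 bp before to 56 bp after the summit, and 20.3% of windows on pooled summits held at least 1. TTTCAG occurred at 2 places in the rpc-2 window (58.8% of windows held it), at 2 in the rpac-19 space (38.3%) and at 1 in the tbp-1 window (44.4%). The TATA box, the E box, the GC box and the B box core had no match in any of the 4 windows. These matches describe letters in the windows and do not show a bound site.

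The 8 genes fell into 3 groups by their promoter summits. The genes rpac-19 and rpc-2 had a summit in the thresholded list, tbp-1, rpoa-2 and rpoa-1 had one in the pooled list at lower ranks, and rpc-1, rpac-40 and brf-1 had none in the pooled list. In the pooled list the −log10 q-value was 2.47 at both rpac-19 and rpc-2. It was 0.342 at tbp-1, 0.364 at rpoa-2 and 0.121 at rpoa-1. None of these was in the thresholded list, and the pooled list holds background, so they need not be called peaks. The count was 2 of 8 in the thresholded list, where 1.64% of all nuclear protein-coding genes had a promoter summit. It was 5 of 8 in the pooled list, against 26.2% of all genes, and nothing is read from these shares because the genes were chosen with the lists known. In the replicates 5 of 8 had a promoter summit in the list of replicate 1, against 26.0% of all genes, and 4 of 8 in that of replicate 2, against 21.6%. The median rank of the strongest promoter summit was 8823 over the 5 genes that had one in the pooled list and 10807 over all 5228 genes that had one. None of the promoter summits of the 8 genes lay in the window of another protein-coding gene.

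**Figure D1:**
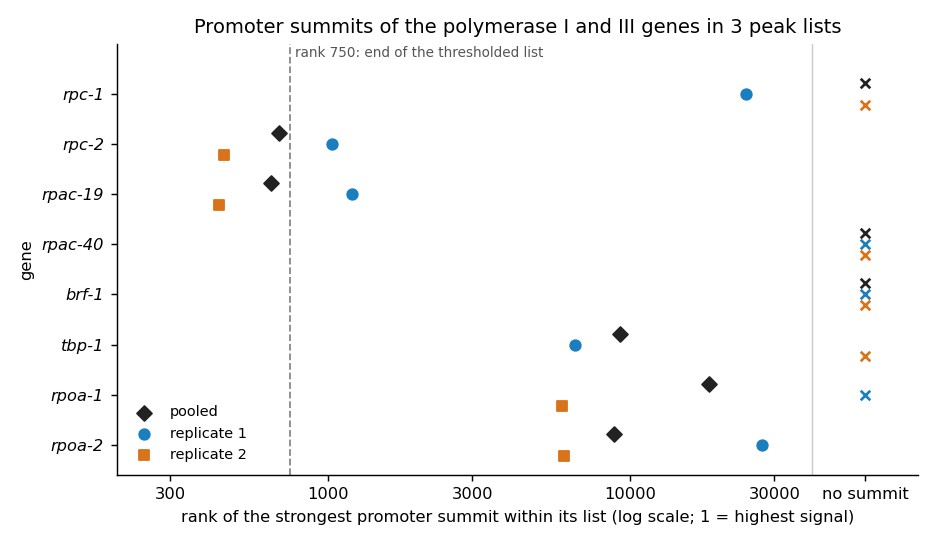
Rank of the strongest promoter summit of each gene (horizontal axis, log scale, rank 1 is the highest signal) in the pooled list (diamonds), replicate 1 (circles) and replicate 2 (squares), with crosses at the right for genes that had no promoter summit in a list. The dashed line is rank 750, the end of the thresholded list. Of the pooled diamonds only those of rpac-19 and rpc-2 lie to its left, and so do the replicate 2 squares of these genes.

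The shared subunits differed. For rpac-19 (WBGene00010230, chromosome III, 9629246 to 9629885, minus strand), the smaller of the pair, the signal was 94.2 at rank 648 in the pooled list, 48.4 at rank 1204 in replicate 1 and 45.3 at rank 436 in replicate 2. Its peak ran from 9629801 to 9630260 with the summit at 9630031, at -146 bp from the start and between genes. The replicate summits lay at -152 bp and -118 bp, 34 bp apart. The gene is 640 bp long, no list placed a summit inside it, and its neighbour tbg-1, which encodes gamma-tubulin, begins 91 bp after its end. The list of replicate 2 held another summit at -318 bp, inside ubc-7, with a signal of 10.5 at rank 23201.

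For rpac-40 (WBGene00019275, chromosome V, 4199485 to 4203696, plus strand), the larger shared subunit, none of the 4 lists had a promoter summit. Its only pooled summit lay in a coding exon 1449 bp after the start, with a signal of 21.2 at rank 21071. Replicate 1 had no summit there, and replicate 2 had one 57 bp away with a signal of 14.8 at rank 11551. Replicate 2 also placed a summit 209 bp after the start, just outside the promoter window, with a signal of 12.8 at rank 16134. Of the 2 subunits that bind each other in the enzyme, 1 thus had a thresholded promoter summit and the other had none in any list, a difference that was known when the genes were chosen and was not tested.

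The large subunits of RNA polymerase III also differed. For rpc-2 (WBGene00017300, chromosome III, 5557365 to 5564837, plus strand), the second largest subunit, the signal was 92.1 at rank 687 in the pooled list, 51.5 at rank 1033 in replicate 1 and 44.8 at rank 452 in replicate 2. Its peak ran from 5557256 to 5557715 with the summit at 5557486, 121 bp after the annotated start and in the first coding exon. The summit of replicate 1 lay at the same base and that of replicate 2 lay 35 bp nearer to the start. The −log10 q-value of the peak was 2.47 in the pooled list, 2.54 in replicate 1 and 2.23 in replicate 2, and for rpac-19 it was 2.47, 2.43 and 2.23.

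For rpc-1 (WBGene00004411, chromosome IV, 7160135 to 7165748, minus strand), the largest subunit, neither the pooled nor the thresholded list had a summit in the promoter window or in the gene. Replicate 1 had a promoter summit in an intron 120 bp after the start with a signal of 13.2 at rank 24144, and another in a coding exon 4837 bp after the start with a signal of 22.5 at rank 8586. Replicate 2 had 1 summit, in a coding exon 3859 bp after the start, with a signal of 12.7 at rank 16223. None of the 3 lay within 200 bp of a summit of the other replicate, so the replicates did not place a summit at the same position in rpc-1.

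The genes of RNA polymerase I had weak summits. For rpoa-2 (WBGene00008781, chromosome I, 9280923 to 9286576, minus strand), the second largest subunit, the promoter signal was 32.5 at rank 8823 in the pooled list, 12.0 at rank 27377 in replicate 1 and 18.8 at rank 6032 in replicate 2. The pooled summit and that of replicate 2 lay at the same base, 17 bp after the start, and that of replicate 1 lay at -33 bp. For rpoa-1 (WBGene00012999, chromosome II, 13670626 to 13694795, minus strand), the largest subunit, the promoter signal was 22.9 at rank 18281 in the pooled list and 18.9 at rank 5962 in replicate 2, both at -132 bp. Replicate 1 had no promoter summit at rpoa-1. At both genes the pooled summit lay at the base of the replicate 2 summit. The pooled list was made from both replicates, so this shared base is not a separate observation. Replicate 1 had a promoter summit at a low rank at rpoa-2 and none at rpoa-1.

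Of the initiation factors, tbp-1 (WBGene00006542, chromosome III, 7384033 to 7386124, plus strand) had a promoter summit in its first coding exon, 120 bp after the start. Its signal was 31.8 at rank 9242 in the pooled list and 25.1 at rank 6561 in replicate 1, and replicate 2 had none. A stronger summit lay near the end of the gene, 1992 bp after the start and 99 bp before the annotated end, in the untranslated region, with a signal of 36.9 at rank 6432 in the pooled list and 22.4 at rank 3506 in replicate 2. That summit also lay in the promoter window of the next gene, trd-1, at -204 bp from its start. Replicate 1 had a summit 146 bp away from it at rank 11353.

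For brf-1 (WBGene00000271, chromosome II, 7305858 to 7308792, plus strand) no list had a promoter summit. Its only pooled summit lay 15 bp before the end of the gene, in the untranslated region and also inside the gene F45E12.5, with a signal of 38.5 at rank 5817. Replicate 2 had a summit at the same base with a signal of 21.5 at rank 3997. The nearest summit of replicate 1 lay 91 bp away, outside brf-1, at rank 15685. At tbp-1 and brf-1 the strongest pooled summit was therefore at the end of the gene and not at its start.

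In the replicates the genes rpac-19 and rpc-2 were both among the 750 strongest peaks of replicate 2 and neither was among the 750 strongest of replicate 1. By share of the list, rpac-19 stood in the strongest 4.01% of replicate 1 and 1.74% of replicate 2, and rpc-2 in the strongest 3.44% and 1.8%. Among the 327 genes with a thresholded promoter summit, rpac-19 was at place 279 and rpc-2 at place 303 by signal, so both were in the weaker part of that list. The gene closest to rpac-19 by rank over the pooled and both replicate lists was C37C3.1, at ranks 635, 1174 and 475 (Euclidean distance of 0.0398 in log10 rank, among 2526 genes with a promoter summit in all 3). The next were F11E6.4 (668, 1323 and 473) and vha-12 (680, 1271 and 360), which encodes a subunit of the vacuolar proton pump.

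Relative to the start, the summits of the 8 genes were not all upstream. Among the 327 genes with a thresholded promoter summit the median position was -193 bp, and the quartiles were -303.5 bp and -91.5 bp. The summit of rpac-19, at -146 bp, lay within that range. The summit of rpc-2, 121 bp downstream, was 1 of 34 (10.4%) downstream of the start and 1 of 11 (3.36%) at least 100 bp downstream. The annotated model of rpc-2 begins with its start codon and holds no untranslated bases before it, so the distance of this summit from the place where transcription begins is unknown. The summits of tbp-1 and rpoa-2, which were not thresholded, also lay downstream. Many worm messenger RNAs receive a spliced leader in place of their first bases, so an annotated start can lie downstream of the place where transcription begins. How far this holds for these genes was not tested.

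**Figure D2:**
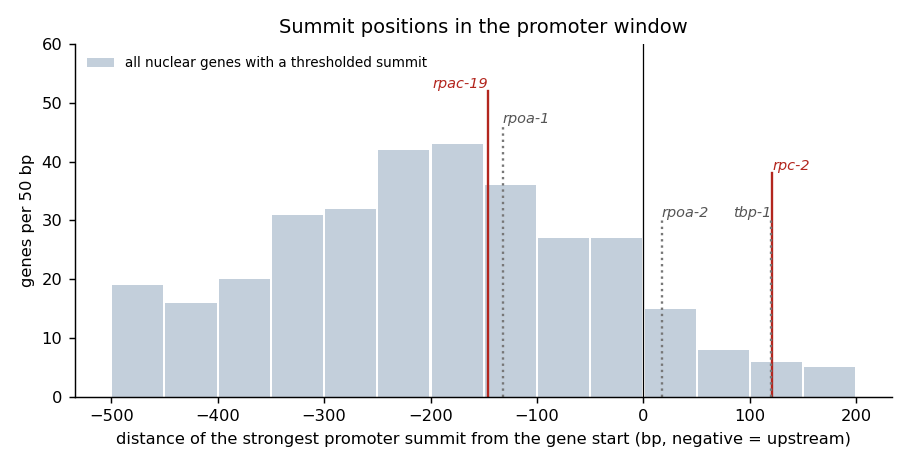
Distance of the strongest promoter summit from the gene start (horizontal axis, bp, negative values upstream) for the 327 nuclear protein-coding genes with a thresholded promoter summit (bars, genes per 50 bp). Solid lines mark the thresholded summits of rpac-19 (-146 bp) and rpc-2 (121 bp), and dotted lines the weaker pooled summits of rpoa-1, rpoa-2 and tbp-1, with line heights that carry no value.

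The surroundings of the starts were also described. A neighbour on the same strand ended within 500 bp upstream of 5 of the 8 genes (62.5%), against 3612 of all 19973 genes (18.1%) and 80 of the 327 genes with a thresholded promoter summit (24.5%). These neighbours were hach-1, 46 bp upstream of rpc-2, algn-5, 85 bp upstream of rpac-40, cul-4, 99 bp upstream of brf-1, T20B12.3, 127 bp upstream of tbp-1, and ubc-7, 211 bp upstream of rpac-19. The other 3 genes had a divergent neighbour on the opposite strand, at 866 bp for rpoa-2, 1034 bp for rpc-1 and 1486 bp for rpoa-1. Closely spaced genes on 1 strand are often transcribed together as operons in the worm, and whether these pairs are was not tested.

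The promoter windows of those upstream neighbours held summits of their own in 4 of 5 cases in the pooled list, against 26.2% of all genes. The strongest was at hach-1, with a signal of 70.9 at rank 1278 in the pooled list, rank 1080 in replicate 1 and rank 7284 in replicate 2. It was weaker than the summit at the start of rpc-2 in the pooled list and in replicate 2, and ranked close to it in replicate 1. At cul-4, a ubiquitin ligase scaffold gene, the signal was 69.7 at rank 1336 in the pooled list, and the ranks were 2306 in replicate 1 and 1115 in replicate 2. The gene brf-1, which follows cul-4, was thus without a promoter summit while its upstream neighbour had one in all 3 lists. At ubc-7, a ubiquitin-conjugating enzyme gene, the signal was 53.4 at rank 2518, below that of rpac-19. At T20B12.3 it was 25.5 at rank 14987, and algn-5 had a summit in replicate 1 alone, at rank 21928.

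The last 6 bases before the annotated start were TTTCAG at rpc-2 and rpac-19, as the bases just before the start codon of the first sequence above and at the end of the second show, and at 12.3% of all genes. They ended in AG, as an acceptor of splicing does, at 5 of the 8 genes (62.5%), which were rpc-1, rpc-2, rpac-19, rpac-40 and tbp-1, and at 27.6% of all genes. This feature was looked at after the sequences had been seen. No short RNA gene (tRNA, snoRNA, snRNA or rRNA) lay near the 8 genes. The nearest was 11924 bp from rpoa-2, and the farthest such distance was 121366 bp, at brf-1.

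Inside the genes, 6 of the 8 had a pooled summit, against 44.3% of all nuclear protein-coding genes. A gene's length bears on this count, and the 8 genes range from 640 bp (rpac-19) to 24170 bp (rpoa-1). Per 10 kb of gene, the 8 genes together held 4.36 pooled summits and all genes 3.24. The values were 3.41 and 3.22 in replicate 1, and 3.98 and 2.67 in replicate 2. Of the 23 pooled summits in the 8 genes, rpc-2 held 7, or 9.37 per 10 kb, with 9.37 in replicate 1 and 6.69 in replicate 2. They include the summit near its start, which was known when the genes were chosen, so nothing is read from the densities. The short tbp-1 held 3, or 14.3 per 10 kb, but 9.56 in replicate 1 and 4.78, from 1 summit, in replicate 2. The much longer rpoa-1 held 8 pooled summits, or 3.31 per 10 kb.

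**Figure D3:**
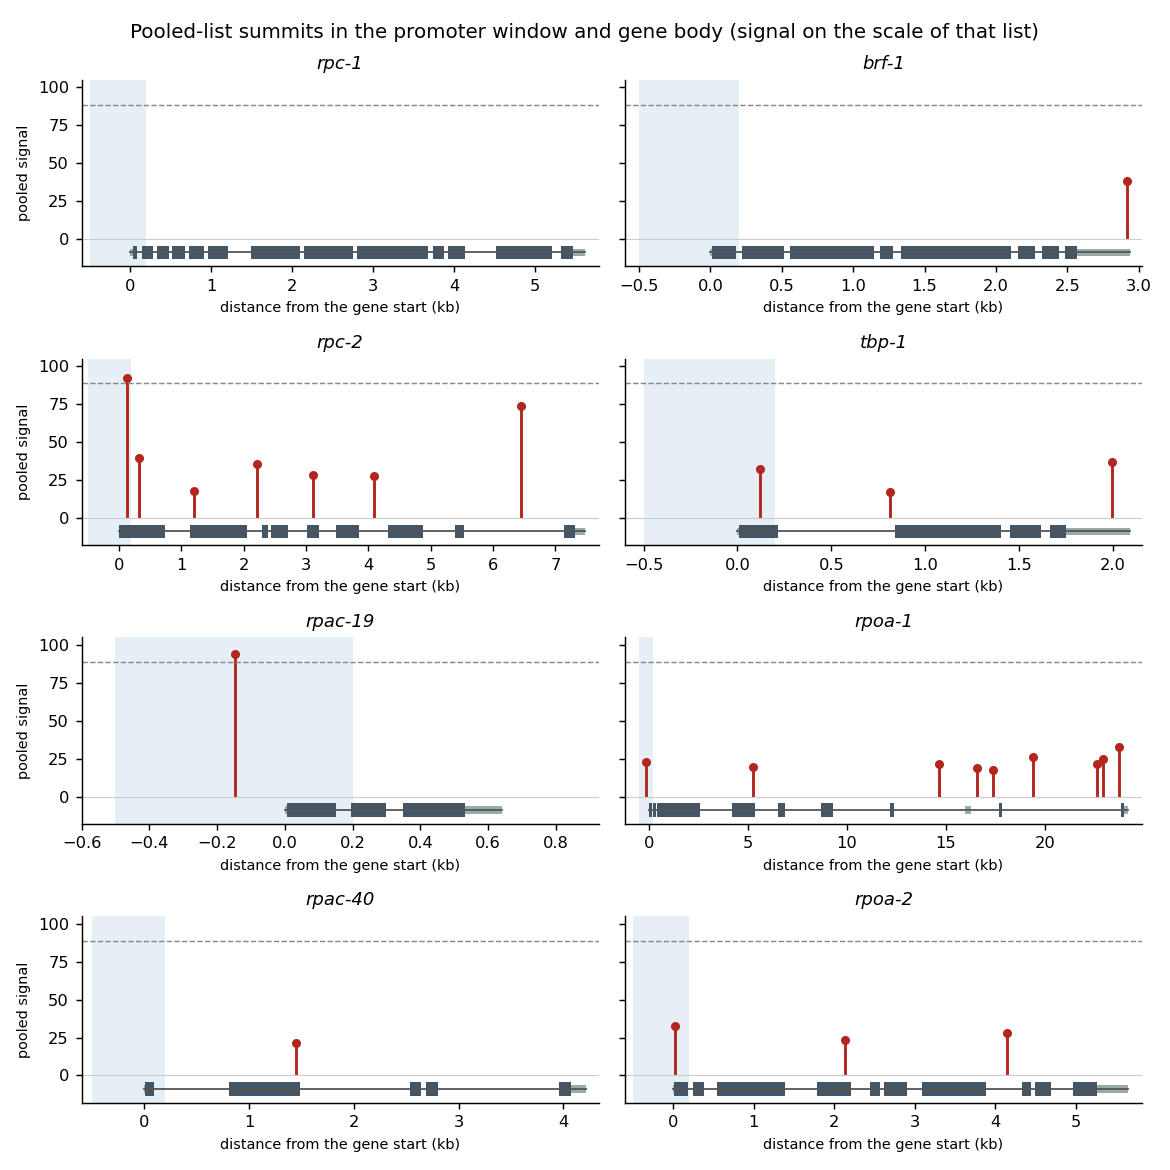
Pooled summits (red stems, height is the signal on the scale of the pooled list) along each gene, against the distance from the gene start in kb, with coding exons as dark boxes, untranslated exons as light boxes and the promoter window shaded. The dashed line is the signal at rank 750, and the first stem of rpc-2 and the only stem of rpac-19 rise above it.

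In rpc-2 the summits were unequal. Besides the one near the start, a summit in an intron 6443 bp after the start had a signal of 73.8 at rank 1171 in the pooled list, 43.6 at rank 1580 in replicate 1 and 28.3 at rank 1748 in replicate 2. Its peak ran from 5563578 to 5564037, and the replicate summits were 14 bp apart. The −log10 q-value of this peak in the pooled list was 2.47, the same as at the promoter summits of rpc-2 and rpac-19. In replicates 1 and 2 it was 2.39 and 1.79, below the 2.54 and 2.23 at the promoter summit of rpc-2. This summit was below the threshold of the pooled list, lay 1029 bp before the end of the gene, and was in the promoter window of no protein-coding gene. The other 5 pooled summits of rpc-2 had signals from 17.9 to 39.7 at ranks from 5361 to 27034.

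In rpoa-1 the strongest of the 8 summits in the gene was in an intron 23730 bp after the start, 439 bp before the end, with a signal of 32.7 at rank 8687 in the pooled list and 33.0 at rank 3194 in replicate 1. Replicate 2 had no summit within 200 bp of it. The other 7 had pooled ranks from 14472 to 27618, and 6 of them lay in introns. In rpoa-2 the pooled summits in the gene were the one 17 bp after the start, 1 in a coding exon 2129 bp after the start at rank 17342 and 1 in an intron 4148 bp after the start at rank 12519. In tbp-1 a further summit in an intron 814 bp after the start was at rank 29625.

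How often a pooled summit was found in both replicates depended on its rank. Over all pooled peaks, the share with a summit within 200 bp in both replicate lists fell from 98.0% at ranks 1 to 1000 to 3.5% at ranks 29001 to 30000. Of the 25 pooled summits in the windows and bodies of the 8 genes, 11 had a summit within 200 bp in both replicate lists, 11 in 1 list and 3 in neither. Distances here are from the pooled summit. For the rpc-2 summit 4098 bp after the start, counted as found in both, the replicate summits lay 219 bp from each other. Whether these counts differ from those of other peaks at the same ranks was not tested. Among 1001 pooled peaks ranked around rpac-19, 97.7% had a summit in both replicates, and 97.6% around the promoter summit of rpc-2. The share was 94.9% around the intron summit of rpc-2. Around the promoter summits of rpoa-2 and tbp-1 it was 50.2% and 48.3%. That of tbp-1 was found in 1 replicate. That of rpoa-2 had an entry in both, but the one in replicate 1 was at rank 27377 with a −log10 q-value of 0.0323. Around that of rpoa-1 it was 14.0%, and this summit was found in 1. At rpac-19 and rpc-2 both the position and a rank within the strongest 1204 peaks were thus found in each replicate, and below about rank 9000 a summit in the pooled list often rested on 1 of the replicates.

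**Figure D4:**
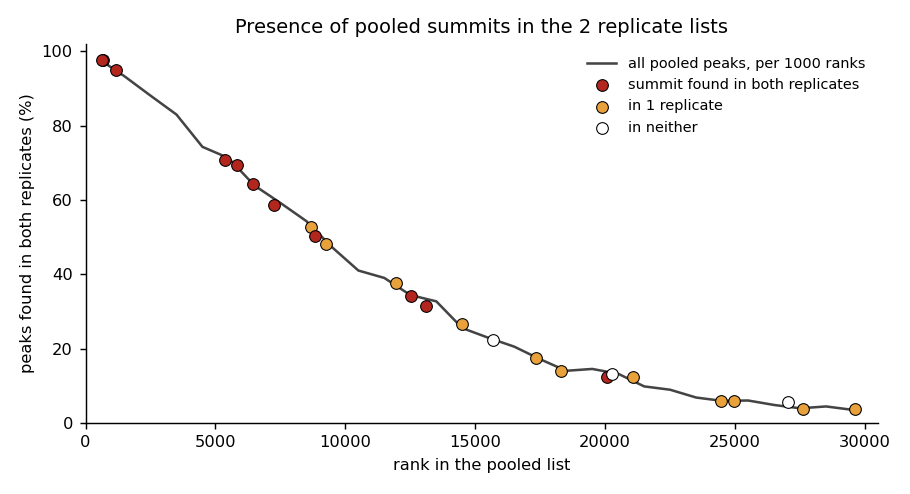
Share of pooled peaks with a summit within 200 bp in both replicate lists (vertical axis, percent) against the rank in the pooled list, as a line per 1000 ranks for all peaks. Points are the 25 pooled summits of the 8 genes, placed at the share among the peaks ranked around each and filled by whether that summit was itself found in both replicates (11), in 1 (11) or in neither (3).

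The rest of the transcription machinery was described from a list of 49 genes chosen by gene name: the other subunits of RNA polymerases I, II and III, the TFIIIC and SNAP complexes, the TBP-associated factors, other initiation factors and a pair of nucleolar genes. A pooled promoter summit was found at 22 of the 49 (44.9%), against 26.2% of all nuclear protein-coding genes, and a thresholded one at 1, against 1.64%. The list was drawn up with earlier results of these data known, so nothing is read from its shares. The groups also follow gene names, so a subunit shared between polymerases is counted only under the enzyme of its name. By group, a pooled summit was found at 8 of 12 genes named as RNA polymerase II subunits, 6 of 17 TBP-associated factor genes, 2 of 7 SNAP complex genes and 1 of 3 TFIIIC genes. It was found at 1 of 2 further genes named for RNA polymerase I subunits and 1 of 2 named for RNA polymerase III subunits. These counts therefore do not compare the enzymes. The lists of replicate 1 and replicate 2 had a promoter summit at 25 and 18 of the 49, against 26.0% and 21.6% of all genes. In the same order, the counts were 11 and 5 for the genes named as RNA polymerase II subunits and 3 and 2 for TFIIIC. They were 6 and 6 for the TBP-associated factors and 1 and 1 for the SNAP complex.

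The 1 thresholded gene of that list was rpb-11, which encodes the RNA polymerase II subunit that corresponds to RPAC-19. Its signal was 127 at rank 267 in the pooled list, at rank 258 in replicate 1 and at rank 453 in replicate 2, and its summit lay at -136 bp, where that of rpac-19 lay at -146 bp. The counterpart of RPAC-40 in RNA polymerase II, encoded by rpb-3, had a signal of 39.5 at rank 5439, with rank 3307 in replicate 1 and no summit in replicate 2, in a window shared with pas-4. In both enzyme families the smaller partner of the pair thus had the higher rank. With 1 pair in each family this is a description of 4 genes, and rpb-3 was chosen after its values were seen.

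Of the genes named for RNA polymerases I and III outside the 8, rpoa-12 had a promoter summit in none of the lists and rpc-11 had one in replicate 2 alone, at rank 6121. The 5 genes that follow were picked once their values had been seen. The gene rpc-25 had a signal of 32.5 at rank 8804, rpoa-49 had 25.2 at rank 15374, and tftc-5, a TFIIIC subunit gene, had 31.8 at rank 9252, close to the levels of rpoa-2, rpoa-1 and tbp-1. The gene tif-1A, named for an RNA polymerase I initiation factor, had a signal of 86.7 at rank 795, just below the threshold, with ranks 1544 and 743 in the replicates. A snoRNA gene, C36E8.11, lies within 200 bp of that summit. The gene fib-1, which encodes the nucleolar methyltransferase fibrillarin, had a signal of 73.9 at rank 1167 and rank 540 in replicate 1, but no summit in replicate 2, and it shares its window with mut-15.

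**Figure D5:**
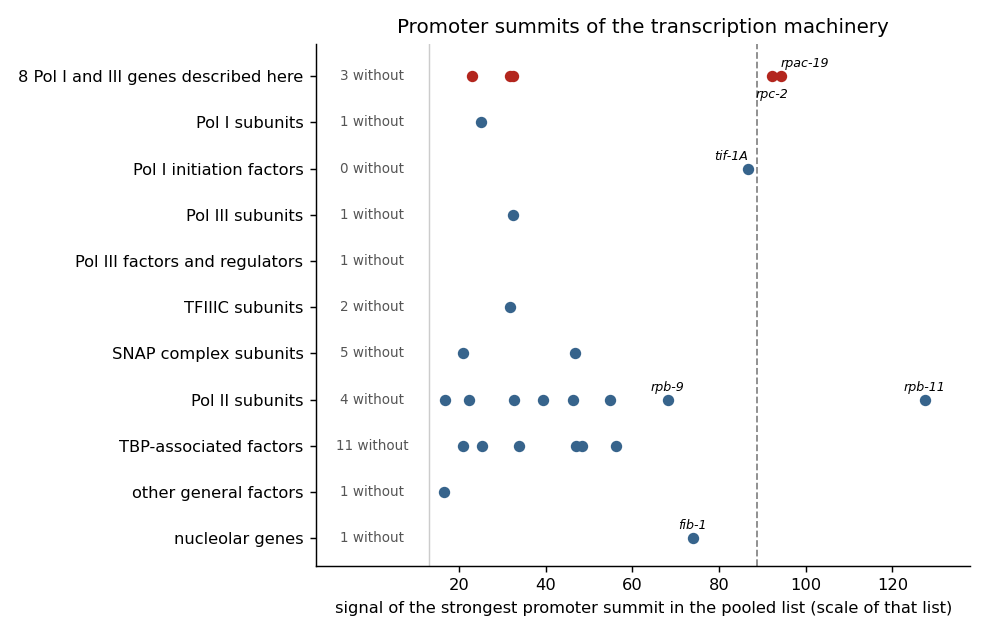
Signal of the strongest promoter summit in the pooled list (horizontal axis, scale of that list) for the 8 RNA polymerase I and III genes (red) and 49 other genes of the transcription machinery by group (blue), with the number of genes without a pooled promoter summit at the left. Only rpac-19, rpc-2 and rpb-11 lie to the right of the dashed line, the signal at rank 750.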

How the data were processed

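The deposited files are narrowPeak lists of ChIP-seq for tagged ZNF-207, labelled as input lists with background for IDR (irreproducible discovery rate, a measure of how well peak ranks repeat) and as a set cut by it. For the aligner and the peak caller, names and versions were not given in the sources used. The ce10 lists were not used. The authors' signal per peak (column 7, scaled within each list) was ranked within each list, with ties broken by the deposited −log10 q-value (column 9), and the deposited offset (column 10) gave the summit. Genes came from Ensembl release 115 on WBcel235, whose chromosomes held all peak ends, and counts used Python 3.11.15 with NumPy 2.4.6. Window counts were tested on simulated data with planted summits. The genes and the list of other machinery genes were chosen with earlier results of these data known. The genes named in the text are the 8, the neighbours or sharers of their summits, thresholded genes of the machinery list with up to 2 that lack a pooled summit, and the 3 closest to rpac-19 by rank, and others are said to be chosen after their values were seen. Alternatives were other promoter windows, starts, list lengths, peak intervals in place of summits, and each replicate alone. With no counts per sample, no precision from depth can be given.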

Additional observations from a re-analysis of the deposited data

How the results depend on the processing

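With a narrower promoter window, 200 bp upstream and 100 bp downstream, 1 of the 8 genes, rpac-19, had a thresholded summit (0.781% of all genes), and 3 had a pooled one (14.1% of all genes). The summits of rpc-2 and tbp-1 lie more than 100 bp downstream and so fall outside that window. Among the thresholded peaks above their median signal the count was 0 (0.781% of all genes). With the 750 strongest peaks of 1 replicate in place of the thresholded list, the count was 0 without replicate 2 (1.59% of all genes). It was 2 without replicate 1 (1.39%), so the thresholded count of 2 rests on replicate 2 and on the pooled ranking. With 1 replicate list in place of the pooled list, the count of promoter summits was 4 without replicate 1 (21.6% of all genes) and 5 without replicate 2 (26.0%). The median rank of the genes with a summit ran from 3207 without replicate 1 to 6561 without replicate 2, in lists of other lengths and over partly different genes. The other alternatives (a window 1000 bp upstream to 200 bp downstream, the start of any transcript, the nearest start alone, the 1500 or 10000 strongest pooled peaks, and intervals in place of summits) gave a thresholded count of 2 and a pooled count from 4 to 6, where rpac-40 was added by the wider window and by the intervals. Over these settings the share of all genes ran from 1.33% to 3.06% for the thresholded count and from 12.5% to 34.8% for the pooled count. No paired analysis was possible because the 2 replicates form 1 group. The data are peak lists without read counts, no control was analysed here, and 2 replicates limit how well a rank is known.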
